A study of Mus musculus with 18 samples.

Results

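The genes described here are 2 RAS genes and 6 genes whose products limit signalling from RAS to ERK: Nras, Hras, Nf1, Rasa1, Spred1, Spred2, Dusp2 and Dusp6. They were taken by name, after pairing Ensembl identifiers with gene symbols, and Hras1 was read as an older symbol of Hras. All 8 were found in each of the 3 deposited tables, out of 12679, 12861 and 12838 genes. None is missing from a table.

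The study sequenced RNA from mouse acute myeloid leukemia (AML) driven by the MLL/ENL fusion together with Nras. All groups carry both drivers, and the leukemia was either p53WT or p53null. The leukemia was grown by transplant in mice of the C57BL/6 strain, which were given vehicle or CX-5461, a compound that blocks RNA polymerase I, once disease was established. GFP-positive cells were sorted from the marrow, with 3 samples each for vehicle and CX-5461 at 10 h in p53WT AML, at 10 h in p53null AML and at 72 h in p53WT AML. The labels give no dose, no age, no number of donor leukemias, and no account of which form of Nras drives the leukemia or how it is expressed. Reads from a driver copy and from the mouse's own Nras cannot be told apart in these counts.

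RAS proteins are small GTPases that switch on when exchange factors load them with GTP. Active RAS drives the kinase chain RAF, MEK and ERK, and GTPase-activating proteins switch it off. ERK in turn induces genes whose products dampen the chain, such as the SPRED proteins, which bring neurofibromin to RAS, and the dual-specificity phosphatases (DUSPs) that dephosphorylate ERK. In myeloid leukemia this pathway is often held active by mutation of a RAS gene.

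The stretches before the transcription starts of the 4 feedback genes that are called at least once below are shown here, so that their sequence can be set beside their expression. They are from RefSeq on GRCm38.p6, run 5′ to 3′ and end at the base before the start. The Spred2 stretch ends earlier, where a GENCODE exon begins. Capitals mark a match on either strand to the GC box, spelled GGGCGG, the CCAAT box, or the E box, spelled CACGTG.
Dusp2, chr2:127335909-127336158, + strand: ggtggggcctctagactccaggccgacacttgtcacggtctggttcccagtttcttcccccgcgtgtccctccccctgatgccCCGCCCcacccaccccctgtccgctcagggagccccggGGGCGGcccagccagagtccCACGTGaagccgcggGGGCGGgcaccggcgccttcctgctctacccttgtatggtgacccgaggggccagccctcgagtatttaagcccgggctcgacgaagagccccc
Dusp6, chr10:99262981-99263230, + strand: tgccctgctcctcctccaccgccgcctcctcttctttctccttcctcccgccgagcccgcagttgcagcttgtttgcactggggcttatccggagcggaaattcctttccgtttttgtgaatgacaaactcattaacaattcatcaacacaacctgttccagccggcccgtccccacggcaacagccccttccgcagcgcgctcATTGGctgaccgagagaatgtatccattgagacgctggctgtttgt
Spred1, chr2:117120821-117121070, + strand: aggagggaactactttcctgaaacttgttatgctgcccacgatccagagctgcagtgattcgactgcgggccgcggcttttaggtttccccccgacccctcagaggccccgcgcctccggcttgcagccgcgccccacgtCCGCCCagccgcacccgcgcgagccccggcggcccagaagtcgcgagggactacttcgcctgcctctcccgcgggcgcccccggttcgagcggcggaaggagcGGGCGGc
Spred2, chr11:19924192-19924374, + strand: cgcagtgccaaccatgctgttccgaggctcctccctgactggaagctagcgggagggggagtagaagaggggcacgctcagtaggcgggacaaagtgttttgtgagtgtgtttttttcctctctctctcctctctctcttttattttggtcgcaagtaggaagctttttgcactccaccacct

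Dusp2 and Spred1 shared a high GC content, 70.4% and 70.8%, against a median of 52.4% over the 32851 promoters of the table. Dusp6 (56.4%) and Spred2 (56.0%) lay nearer to that median. GC boxes were found in the 250 bases before Dusp2 (3 matches), Spred1 (2) and Spred2 (1, in the part not printed), but not Dusp6. Of all promoters of the same length, 32.74% hold one. The Dusp6 window held a CCAAT box, as 33.85% of promoters do, and the Dusp2 window an E box, as 6.02% do. The ETS core CCGGAA (12.03% of promoters), the CRE TGACGTCA (1.55%), the AP-1 site TGANTCA (6.75%), the TATA box TATAAA (12.37%) and the CArG box (1.47%) were searched on both strands without a match in these 4 windows. These features were not limited to the called genes: the windows of Hras and Rasa1, which no comparison called, held 3 and 1 GC boxes and had a GC content of 65.6% and 68.8%, and that of Nf1 reached 74.0%. The ETS core had 1 match each in the windows of Hras, Nf1 and Rasa1, and 0 in that of Nras. The Nras window, which is not printed, held 2 GC boxes that overlap each other and an E box. In the 4 printed windows no matches overlapped. The matches are letters only, and no binding was measured.

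Counts per library exist for p53WT AML at 10 h only, with 21578685 to 48118513 counts per library over the genes of the table. For the other 2 tables the authors' deposited fold changes and false discovery rates (FDR) are used, their depth is unknown, and no spread between samples can be given. Trp53 was measured at 142 to 168 CPM (counts scaled to the normalised size of the library) in the vehicle libraries and 180 to 183 CPM in the CX-5461 libraries of p53WT AML. The authors' deposited tables list its mean at 168.9 CPM (p53WT, 10 h), 163.5 CPM (p53WT, 72 h) and 61.5 CPM (p53null). All 12 genes of a leukemia list, among them Hoxa9, Meis1, Kit and Ptprc, were present in each table. The levels of some differed at least 2-fold between p53WT and p53null AML at 10 h, as given below. Although the cells were sorted for GFP, genes typical of erythroid cells and mature neutrophils varied between the vehicle libraries at 10 h. The source of this RNA was not tested, and maturing leukemia cells can express the neutrophil genes as well. Summed over 17 erythroid genes, they ranged from 796.4 to 20160 CPM, compared with 473.0 to 685.4 CPM after CX-5461, and over 15 mature neutrophil genes from 7577 to 19890 CPM against 3169 to 4352 CPM.

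In p53WT AML at 10 h, Spred2 was the 1 member that rose with CX-5461, and the RAS genes themselves did not pass the test. Of the 8 members, 1 rose and 0 fell in the edgeR quasi-likelihood test at a Benjamini-Hochberg adjusted p under 0.05. Over all genes, 8.10% were called, 3.78% higher and 4.32% lower. The authors' deposited table calls 0 of the 8 members by its FDR and 10.4% of all genes, 3.57% higher (453 genes) and 6.83% lower (866), where the test used here has 479 higher and 548 lower. At an unadjusted p under 0.05 there were 2 members, Spred1 and Spred2, in the test used here, and DESeq2 called both. The members' median log2 fold change was 0.04, and the median over all genes was 0.00. Both arms separated completely for 2 of the 8 members, both higher with CX-5461, while 39.0% of all genes separated in this way, 19.9% higher and 19.1% lower.

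**Figure D1:**
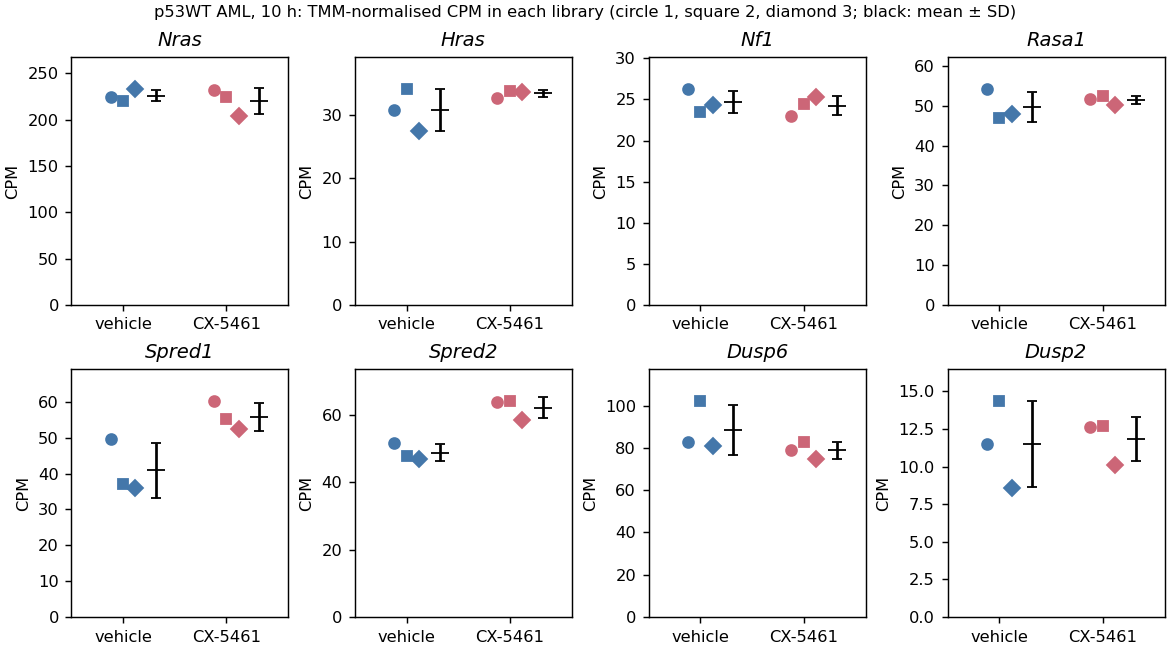
TMM-normalised CPM (vertical axis, starting at 0) of the 8 members in the 3 vehicle and the 3 CX-5461 libraries of p53WT AML at 10 h. Each symbol is 1 library and the black bars are mean ± SD; Spred1 and Spred2 separate by arm and the other 6 members overlap.

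Spred2, a membrane-bound inhibitor of the RAS to ERK chain, was measured in vehicle libraries 1 to 3 at 51.6, 47.8 and 46.8 CPM and in CX-5461 libraries 1 to 3 at 63.8, 63.9 and 58.4 CPM. Every CX-5461 library lay above every vehicle library. Spred2 rose from 48.7 ± 2.54 to 62.0 ± 3.15 CPM (mean ± SD, n = 3). Its log2 fold change was 0.35 (SE 0.0629; edgeR quasi-likelihood adjusted p = 0.0344). The call was lost without CX-5461 library 1, 2 or 3 (adjusted p = 0.171, 0.157 and 0.101), although the log2 fold change stayed between 0.32 and 0.39. The authors' deposited table gives it a log2 fold change of 0.35 at an FDR of 0.0677.

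Spred1, the close relative of Spred2 that is lost in Legius syndrome, was at 49.7, 37.0 and 36.1 CPM with vehicle and at 60.1, 55.2 and 52.3 CPM with CX-5461. The arms did not overlap, but vehicle library 1 stood well above the other vehicle libraries. The mean went from 40.9 ± 7.65 to 55.9 ± 3.94 CPM (n = 3), and the log2 fold change of 0.45 (SE 0.130) missed the threshold (edgeR quasi-likelihood adjusted p = 0.0723). Without vehicle library 1 it was 0.61 with an adjusted p of 0.0183, and DESeq2 called it as well (adjusted p = 0.0125). The authors' deposited table lists Spred1 at a log2 fold change of 0.45 and an FDR of 0.0502.

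Nras, the driver and the RAS gene at issue in this leukemia, had 224, 220 and 232 CPM with vehicle and 231, 224 and 204 CPM with CX-5461. The arms overlapped, and CX-5461 library 3 was the lowest of the 6. Its log2 fold change was -0.04 (SE 0.0590; edgeR quasi-likelihood adjusted p = 0.693), with means of 226 ± 6.18 and 220 ± 14.4 CPM (n = 3). Hras, a RAS gene of the same family, had 30.7, 34.1 and 27.4 CPM with vehicle against 32.7, 33.8 and 33.7 CPM with CX-5461. Vehicle library 2 lay above all CX-5461 libraries and the other vehicle libraries below them. The Hras log2 fold change was 0.12 (SE 0.0851; edgeR quasi-likelihood adjusted p = 0.375).

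For both GTPase-activating proteins the arms overlapped. Nf1, which encodes neurofibromin, the partner of the SPRED proteins, ranged from 23.5 to 26.2 CPM with vehicle and from 23.0 to 25.3 CPM with CX-5461. Rasa1, which encodes p120 RasGAP, ranged from 47.0 to 54.1 CPM and from 50.3 to 52.3 CPM. Their log2 fold changes were -0.03 (SE 0.0734) and 0.05 (SE 0.0664), and neither passed the threshold (edgeR quasi-likelihood adjusted p = 0.829 and 0.652).

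Of the ERK phosphatases, Dusp6, which acts on ERK in the cytoplasm, had 82.7, 102 and 80.6 CPM with vehicle and 79.0, 82.7 and 74.7 CPM with CX-5461. Dusp2, a nuclear phosphatase of ERK and p38 first described in activated lymphocytes, had 11.5, 14.3 and 8.59 CPM against 12.7, 12.7 and 10.1 CPM. Vehicle library 2 was the highest of the 6 for both genes, and it also had the highest erythroid and neutrophil sums. Neither gene passed the edgeR quasi-likelihood test (Dusp6 log2 fold change -0.17, SE 0.0964, adjusted p = 0.282; Dusp2 0.04, SE 0.192, adjusted p = 0.906). With the mean level of the erythroid genes as a covariate their log2 fold changes were 0.11 and 0.70, with adjusted p of 0.797 and 0.445. That fit left Spred2 at 0.37 and Spred1 at 0.52 without a call (adjusted p = 0.443 and 0.526). It called 19 genes in all against 1027 without the covariate. The mean log2 CPM of the erythroid genes was 3.44 or more in every vehicle library and 2.03 or less in every CX-5461 library. The fit therefore cannot clearly separate erythroid level from treatment. The values are of sorted bulk cells, so that fewer cells of a type and less RNA per cell cannot be told apart.

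Over the same 6 libraries, the genes whose log2 CPM followed Nras most closely (10381 genes averaging 5 CPM or more) were Icmt (Pearson r = 0.976), Tmem87a (0.966) and Dtl (0.955). Icmt encodes the methyltransferase that completes the processing of RAS proteins at their C terminus. For Dusp2 they were Herc3 (0.995), Psma6 (0.990) and Gm15429 (0.984), and for Dusp6 Sec62 (0.997), Cript (0.995) and Slc6a13 (0.995). These r are the highest of many over few libraries that share treatment and depth, and they are descriptions only. Hras has Lrrc56 beside it at a gap of 92 bases on GRCm38.p6, with a log2 fold change of -0.04 (edgeR quasi-likelihood adjusted p = 0.887). Evi2 and Evi2a lie within the span of Nf1. Evi2 fell by 0.23 on the log2 scale (adjusted p = 0.0452) and Evi2a had a log2 fold change of -0.44 (adjusted p = 0.0687), both in the edgeR quasi-likelihood test. The authors' deposited table calls neither Evi2 (FDR 0.271) nor Evi2a (FDR 0.0502). The library kit does not mark strand, so that reads of overlapping genes cannot be told apart where their exons meet.

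Of 59 other genes of the pathway measured in this comparison, 2 rose and 4 fell in the edgeR quasi-likelihood test, and their median log2 fold change was -0.10. Over all genes 3.78% rose and 4.32% fell, so that these counts were near the background. Rasgrp4, an exchange factor that activates RAS in myeloid and mast cells, fell from 91.4 ± 6.44 to 53.3 ± 3.10 CPM (log2 fold change -0.78, SE 0.0713, adjusted p = 0.00614). Among the 13 measured adaptors and exchange factors it was the 1 call. Of 7 other RAS GTPase-activating proteins, Rasa3 fell by 0.21 on the log2 scale (adjusted p = 0.0490), and of 13 kinases and scaffolds the RAF scaffold gene Ksr1 fell by 0.36 (adjusted p = 0.0430). The authors' deposited table calls Rasgrp4 (FDR 6.56e-07) but neither Rasa3 (FDR 0.326) nor Ksr1 (FDR 0.0748). ERK1 (Mapk3) and MEK1 (Map2k1) had log2 fold changes of -0.25 and -0.21 and were not called (adjusted p = 0.0524 and 0.0749).

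Among 7 other DUSP genes, Dusp1, an immediate early phosphatase of p38 and JNK, fell from 11.4 ± 5.73 to 3.64 ± 0.572 CPM (log2 fold change -1.65, edgeR quasi-likelihood adjusted p = 0.0498). Its vehicle libraries had 12.7, 16.4 and 5.19 CPM, highest in library 2 and lowest in library 3, as were their erythroid and neutrophil sums. With the erythroid covariate, which cannot be clearly separated from treatment, none of the 59 pathway genes was called. Dusp5 had a log2 fold change of -0.26 (adjusted p = 0.439). No call was made among the 4 other RAS GTPases, with log2 fold changes from -0.81 to -0.10. The 3 measured Sprouty-type genes had none either, with Spry2 at 0.11 and Spry1 at -0.22. Of 12 ERK output genes, 2 rose: Ccnd1, which encodes cyclin D1, from 26.2 ± 8.16 to 52.2 ± 5.80 CPM (log2 fold change 0.98, adjusted p = 0.0454), and the ephrin receptor gene Epha2 (2.14, adjusted p = 0.00883). Egr1, Fos, Etv4 and Etv5 were at -1.30, -0.45, 0.29 and 0.17 and were not called (adjusted p = 0.0767, 0.249, 0.726 and 0.790), although the authors' deposited table gives Egr1 an FDR of 0.000869. Leaving out 1 CX-5461 library left 0 to 2 of the 59 genes called.

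In p53null AML at 10 h, Dusp2 was the 1 member called. The authors' deposited table gives it a log2 fold change of -0.43 (0.744-fold) at an FDR of 0.00790 and a mean of 15.0 CPM. It was 1 of 24 genes called in that table, 0.187% of all genes, of which 0.148% were higher and 0.0389% (5 genes) lower. By its p-value of 7.449e-06 it ranked 12 of 12861. The same gene in p53WT AML was at 0.04 (FDR 0.954) at 10 h and -0.21 (FDR 0.477) at 72 h in the authors' deposited tables, and whether genotypes differ could not be tested without counts.

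In p53null AML the other 7 members lay between -0.11 and 0.08 on the log2 scale in the authors' deposited table, each with an FDR of 1. Nras was at -0.11, Hras at 0.02, Nf1 at -0.09, Rasa1 at 0.08, Spred1 at -0.07, Spred2 at -0.09 and Dusp6 at 0.00. The Spred genes thus had small negative values there and positive values in both p53WT tables, a difference that was not tested. None of 66 other pathway genes was called by the authors' edgeR FDR, with 7 at an unadjusted p under 0.05, and their median was -0.01, as against 0.00 for all genes. Those with the lowest p were the early growth response gene Egr3 (-0.74, FDR 0.0513), the immediate early gene Ier2 (-0.26, FDR 0.0916) and Egr1 (-0.60, FDR 0.164). The 11 negative values among 14 ERK output genes included these 3, Etv4 (-0.20), Epha2 (-0.18) and Ccnd1 (-0.02). Some of the 11 were near 0, such as Mcl1 (-0.003) and Phlda1 (-0.02), and of all 12861 genes 6539 were negative. No gene of the 8 marker lists was called in this table, and its 7 listed erythroid genes had a median of -0.10.

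**Figure D2:**
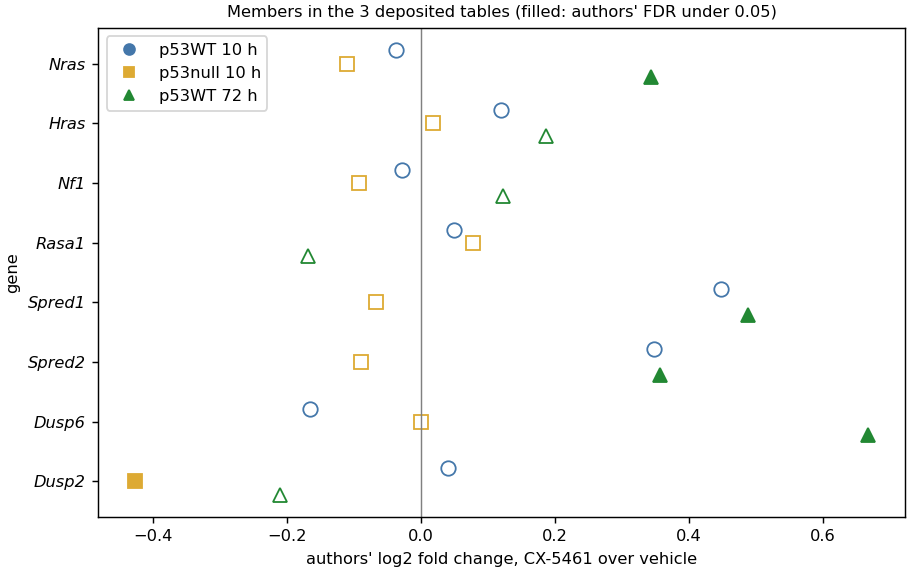
Authors' log2 fold change, CX-5461 over vehicle (horizontal axis), of the 8 members in the 3 deposited tables, 1 symbol per table, filled where the authors' FDR is under 0.05. Dusp2 is filled at -0.43 in p53null AML, and Dusp6, Spred1, Spred2 and Nras are filled between 0.34 and 0.67 in p53WT AML at 72 h.

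After 72 h in p53WT AML, Dusp6, Spred1, Spred2 and Nras were higher with CX-5461. The authors' deposited table calls 4 of the 8 members higher and 0 lower, where 31.2% of all its genes are called, 16.1% higher and 15.1% lower. Dusp6 rose 1.59-fold, a log2 fold change of 0.67 at an FDR of 7.78e-16, and ranked 191 of 12838 genes by p. Spred1 rose by 0.49 (FDR 5.87e-06), Spred2 by 0.36 (FDR 0.000156) and Nras by 0.34 (FDR 0.000157) on the log2 scale.

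The remaining members were not called at 72 h. Hras was at 0.19 (FDR 0.111), Nf1 at 0.12 (FDR 0.438), Rasa1 at -0.17 (FDR 0.164) and Dusp2 at -0.21 (FDR 0.477) in the authors' deposited table. The median over the 8 members was 0.26 and that over all genes -0.01. In the authors' deposited tables the log2 fold change at 10 h and 72 h was 0.45 and 0.49 for Spred1 and 0.35 and 0.36 for Spred2, but -0.17 and 0.67 for Dusp6 and -0.04 and 0.34 for Nras. Differences in time were not tested, since the 72 h table holds no counts. The titles at 72 h also lack the tag carried by those of p53WT AML at 10 h. Whether both come from the same leukemia is not stated, so that time and leukemia cannot be told apart.

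Of 58 other pathway genes, the authors' deposited table for 72 h calls 20 higher and 8 lower, with a median of 0.14. Over all its genes 16.1% are higher and 15.1% lower, so that the share called lower was near the background. Among 11 ERK output genes 7 rose and 1 fell, with a median of 0.64. The ETS factor genes Etv4 and Etv5, which like Dusp6 are common readouts of ERK activity, rose by 1.19 (FDR 7.47e-13) and 0.85 (FDR 2.83e-13). Epha2 rose by 1.78 and the survival gene Mcl1 by 0.64, Fos rose by 1.58 (FDR 0.0177), Ccnd1 by 0.58 (FDR 0.00760), and Myc fell by 0.77 (FDR 1.02e-09), while Egr1 was at 0.30 (FDR 0.357). Of 7 other DUSP genes 3 rose: Dusp16 (0.98, FDR 3.23e-07), Dusp5 (0.81, FDR 3.36e-06) and Dusp1 (2.17, FDR 0.00275). All values are those of the authors' deposited table.

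Upstream of the kinases the calls at 72 h went both ways in the authors' deposited table. Of 14 adaptors and exchange factors 6 rose and 2 fell. Rasgrp3, listed at a mean of 0.997 CPM, rose by 2.05 (FDR 1.86e-09), the scaffold gene Shoc2 by 0.35 (FDR 0.000194) and the ubiquitin ligase gene Cbl by 0.31 (FDR 0.000720), while the exchange factor gene Sos2 fell by 0.34 (FDR 0.00152). Its relative Sos1 rose by 0.31 (FDR 0.00462). Rasgrp4, which fell at 10 h, rose by 0.33 (FDR 0.0233). Of 7 other RAS GTPase-activating proteins 1 rose, Rasa2 (0.30, FDR 0.00632), and 3 fell, among them Rasa3 (-0.50, FDR 7.72e-07) and Rasal3 (-0.27, FDR 0.0144).

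The share of kinase genes called at 72 h in the authors' deposited table was close to the 31.2% over all its genes. Of 13 kinase and scaffold genes 3 rose, Braf (0.25, FDR 0.00949), Rps6ka1 (0.22, FDR 0.0108) and Map2k2 (0.22, FDR 0.0295), and Map2k1 fell by 0.24 (FDR 0.00771). Mapk3 was at 0.12 without a call. Of the 3 listed RAS GTPases Mras fell by 0.32 (FDR 0.0246) and the other two were not called. None of the 3 Sprouty-type genes was called, with Spry2 at -0.18 (FDR 0.123) and Spry1 at -0.45 (FDR 0.167). Whether the Sprouty genes differed from Dusp6, Spred1 and Spred2, which rose, was not tested.

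**Figure D3:**
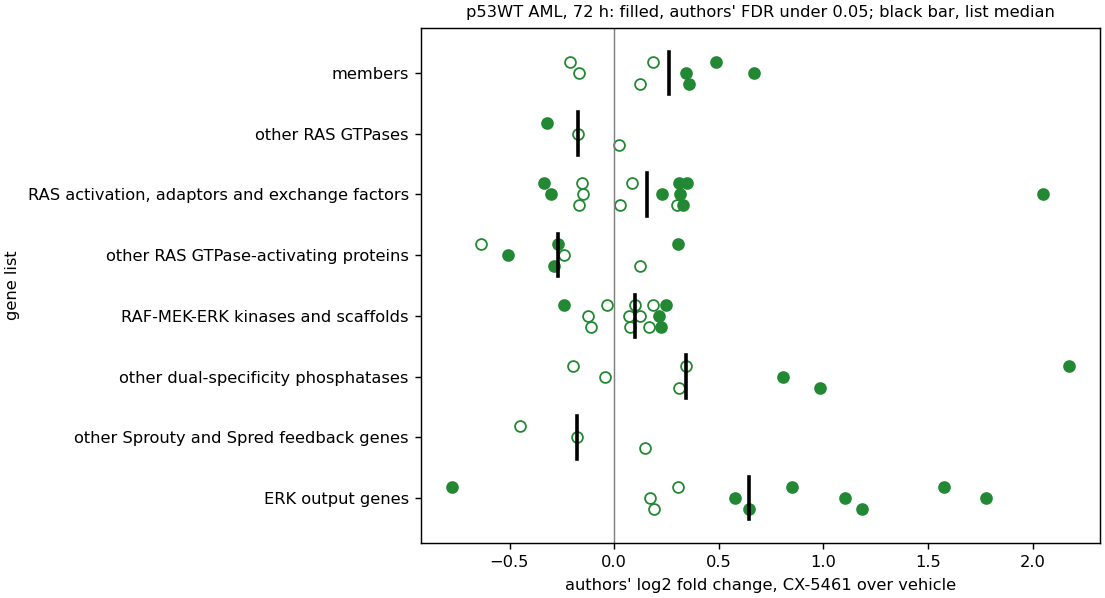
Authors' log2 fold change at 72 h in p53WT AML (horizontal axis) of the members and of 7 lists of other pathway genes, 1 circle per gene, filled where the authors' FDR is under 0.05, with the list median as a black bar. The medians of the ERK output genes (0.64), the other DUSP genes (0.34) and the members (0.26) lie right of 0. So do those of the adaptors and exchange factors (0.16) and the kinases and scaffolds (0.1). Those of the GTPase-activating proteins (-0.27), Sprouty-type genes (-0.18) and other RAS GTPases (-0.17) lie left of it.

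Erythroid and mature neutrophil genes were also called in p53WT AML, lower at 10 h and higher at 72 h. In the edgeR quasi-likelihood test at 10 h in p53WT AML, 11 of 17 erythroid, 11 of 15 mature neutrophil, 3 of 11 monocyte and macrophage and 1 of 4 B cell genes fell. At the same time 1 of 2 T and NK cell genes rose, and none of 3 megakaryocyte and 3 stromal genes was called. At 72 h the authors' deposited table has 11 of 17 erythroid genes higher (median 1.18) and 14 of 15 neutrophil genes (1.08). The globin genes Hba-a1, Hba-a2, Hbb-bs and Hbb-bt were not among them, at -0.11, -0.09, -0.23 and -0.10 on the log2 scale. Their means at 72 h were 259, 238, 261 and 162 CPM. Of 12 monocyte genes 6 were higher and 2 lower (0.32). Higher as well were 2 of 5 B cell, 1 of 2 T and NK cell and 3 of 4 megakaryocyte genes. Of 3 stromal genes 1 was lower. The authors' mean CPM, summed over the genes of a list, was 4772 at 10 h and 1143 at 72 h for the erythroid genes, and 8180 and 10100 for the neutrophil genes. Their part in the rise of Dusp6, Spred1, Spred2 and Nras was not tested, since levels per sample are not in that table. No gene with an entry is at a mean of 0 CPM, and the B cell gene Pax5 is among several without an entry in the 10 h table of p53WT AML. That table holds 4 of 9 B cell, 2 of 9 T and NK cell, 3 of 6 megakaryocyte and 3 of 7 stromal genes.

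The level of the members also differed between the tables, above all for Nras and Dusp6. The authors' mean for Nras over both arms was 222 CPM in p53WT AML at 10 h, 239 CPM at 72 h and 524 CPM in p53null AML, in that order from low to high. Dusp6 followed the same order with 83.4, 108 and 233 CPM. Between the authors' deposited tables at 10 h, Nras was thus 2.36-fold and Dusp6 2.79-fold higher in p53null AML. At least 2-fold higher means were found for 2 of the 8 members, and at least 2-fold lower means for 0, against 7.34% and 7.07% of the 11879 genes in both tables. Each table was normalized on its own, no spread is known, and the titles give the 2 leukemias at 10 h different tags, so that genotype and leukemia cannot be told apart.

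The other members differed less between the tables at 10 h. Spred1 was listed at 48.3 and 77.2 CPM in p53WT and p53null AML, Nf1 at 24.5 and 35.4 CPM, Hras at 32.0 and 43.3 CPM, and Dusp2 at 11.7 and 15.0 CPM. Spred2 was nearly level, with 55.3 and 60.9 CPM. Rasa1 was the 1 member that was lower in p53null AML, with 36.97 against 50.5 CPM. Between 10 h and 72 h in p53WT AML no member differed by 2-fold (2.06% of 12277 genes were that much higher at 72 h and 2.31% lower), and the members' log2 differences ran from -0.39 (Dusp2) to 0.38 (Dusp6).

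Several other genes of the pathway lists were also listed at higher means in p53null AML. Of 7 other DUSP genes 4 were at least 2-fold higher, namely Dusp3, Dusp5, Dusp16 and Dusp22, and the list median log2 difference was 1.63. Of 12 ERK output genes 5 were at least 2-fold higher, with a median of 0.51. The median over all genes in both tables was -0.07, and that over 13 kinase and scaffold genes -0.01 with none past 2-fold. Etv4 went from 1.85 to 29.6 CPM, Etv5 from 7.34 to 50.6 CPM, Dusp5 from 6.55 to 39.9 CPM, Egr1 from 10.3 to 51.7 CPM and Ccnd1 from 39.1 to 142 CPM in the authors' deposited tables. Fos (17.9 and 16.95 CPM) and Dusp1 (7.63 and 5.82 CPM) did not share this, and Spry2 was lower (44.5 and 23.9 CPM). Dusp4 and Spry4 have an entry in the p53null table only, at means of 1.42 and 6.69 CPM. The 7 erythroid genes in both tables had log2 differences from -6.76 to -1.03, and the 15 neutrophil genes a median of 0.65. Of the 12 leukemia genes 1 was at least 2-fold higher in p53null AML, Flt3 (2.25 and 97.2 CPM). Another 3 were at least 2-fold lower there: Meis1 (130 and 34.9 CPM), Mpo (7085 and 2157 CPM) and Kit (130 and 52.3 CPM). The part of these marker genes in the members' levels was not tested.

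**Figure D4:**
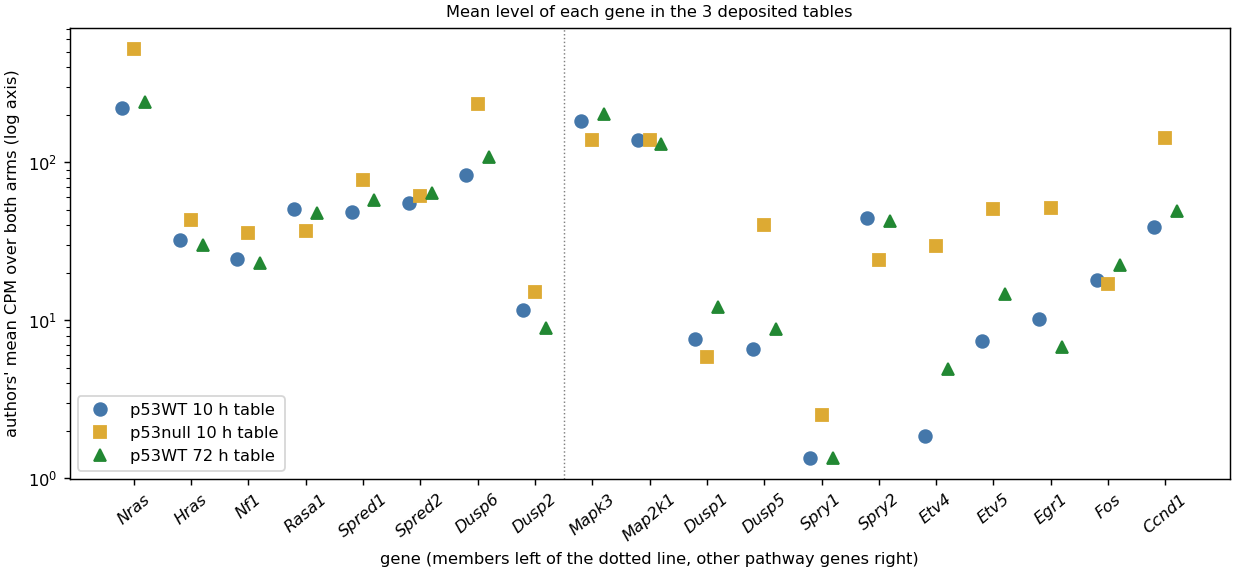
Authors' mean CPM over both arms (vertical log axis) of the 8 members and 11 other pathway genes, 1 symbol per deposited table, to be compared within a gene only. The p53null symbols of Nras, Dusp6, Dusp5, Etv4, Etv5, Egr1 and Ccnd1 lie clearly above those of both p53WT tables.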

How the data were processed

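RNA was measured in 18 samples in 6 groups of 3. The tools named in the submitters' processing notes are Bowtie, CASAVA 1.8.2, edgeR and HTSeq, and the build is mm9; settings and annotation are not given in the sources used here. The authors deposited raw counts for p53WT AML at 10 h, and for all 3 comparisons a log2 fold change, log2 mean CPM, p-value and FDR, per the file headers. The count columns name the arm and a number from 1 to 3 that matches no title (3 to 5), so that they were assigned to groups. Positive values mean higher with CX-5461, checked on the counts (Pearson r = 1.00 across 12679 genes) and taken over for the other tables. Symbols matched 12237, 12366 and 12362 identifiers.

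Counts were normalized by TMM and tested two-sided with the quasi-likelihood test of edgeR 4.0.16 (R 4.3.3) with 4 residual degrees of freedom, after the code was tested on simulated data. Genes passed at an adjusted p under 0.05. SE is the log2 fold change divided by the root of F, and log2 CPM used a prior count of 2. The planned count tests of the other tables could not be run without counts, so the authors' FDR was used. Samples are not stated to be separate animals, so p-values measure the spread between these samples only. Members and lists were chosen with earlier results of these data known. Named genes were all members, up to 4 called genes per list and comparison with the smallest p, 15 pathway genes whatever their call, neighbours on the chromosome, Trp53, and the 3 genes closest to Nras, Dusp2 and Dusp6 by correlation; Egr3, Ier2, Myc and Sos1 lie outside that rule and were chosen after their values were seen. Some genes under this rule are not reported here. Alternatives were DESeq2 1.42.0, limma-voom (limma 3.58.1), RLE size factors, library size alone, robust estimation, a minimum of 5 CPM, a replicate block, an erythroid covariate, each library left out, and, for the deposited tables, an FDR under 0.01.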

Additional observations from a re-analysis of the deposited data

How the results depend on the processing

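Of 12679 genes at 10 h in p53WT AML, 1027 were called in the reported test and 2314 with DESeq2. With 1 library left out, 23 to 1678 were called (23 to 25 without a CX-5461 library). With the erythroid covariate, whose level separated the arms, 19 were called. Members called were 1 in the reported test, 2 with DESeq2, 0 by the authors' FDR, 0 with the erythroid covariate, and 0 to 2 with 1 library left out. Other pathway genes called were 6 in the reported test, 14 with DESeq2, 3 with limma-voom, 2 with library size alone, 0 with the covariate and 0 to 9 with 1 library left out. With the column number as a replicate block, 1536 genes, 2 members (Spred1 and Spred2) and 11 pathway genes were called. Same-numbered libraries deviated together at r = 0.301, 0.106 and 0.027, and CX-5461 library 3 correlated best with vehicle library 2 (0.093). The numbers were not taken as pairs in the reported test, because no protocol states pairing. Blocks for the other tables could not be fitted without counts.

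Signs changed for members near 0 that no setting called. Nras was at 0.0017 and Nf1 at 0.0119 with library size alone. With 1 library left out, Nras ran from -0.0766 to 0.0138, Nf1 from -0.0632 to 0.0196 and Dusp2 from -0.122 to 0.223, and Dusp6 at 0.112 with the erythroid covariate. Spred1, Spred2, Hras and Rasa1 kept a positive sign in all 15 alternatives each. In the p53null and 72 h tables, both alternatives left the counts of members at 1 and 4.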
